A study of Mus musculus with 2 samples.

Results

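The NF-κB genes described here are 5 that encode the subunits of the transcription factor (Rela, Relb, Rel, Nfkb1 and Nfkb2) and 5 that encode its inhibitors and regulators (Nfkbia, Nfkbie, Nfkbiz, Bcl3 and Tnfaip3). They were taken by gene symbol, and all 10 were on the array, out of 28233 genes with a symbol. They were read by 12 probes of 60 bases with 1 spot each, of 39425 probes in all. All 12 probes were well above background in all 4 channels, none of their spots was saturated or marked as an outlier, and 17193 genes in all met the background criterion.

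The study asked which serum-responsive genes depend on THOC5, a subunit of the THO complex that takes part in the processing and export of mRNA. The cells were mouse embryonic fibroblasts, immortalized as one line, from a C57BL/6 x B6:129 Ola background. Both cultures carried floxed Thoc5 alleles (flox/flox) and a Cre-ERT2 recombinase expressed from the Rosa26 locus, which is active in most cell types. Control cells received no tamoxifen and are labelled wildtype, whereas THOC5-depleted cells were taken after 2 days with tamoxifen and are labelled a knockdown. The methods describe 10 μM tamoxifen for 24 h, growth medium for 24 h, serum starvation for 24 h and then 20% serum. On each of the 2 arrays, RNA from unstimulated cells was labelled with Cy3 and RNA from cells given fetal calf serum (FCS) for 1 h with Cy5. There was no dye swap. The array of THOC5-depleted cells was somewhat dimmer, with 75th percentiles of signal of 862 (Cy3) and 867 (Cy5) against 1063 and 1052 on the control array. Each condition had 1 array, so no difference was tested, and a gene is counted below only by the size of its ratio. Because only the THOC5-depleted culture had tamoxifen and active Cre, their effects and that of the loss of THOC5 cannot be told apart.

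The Thoc5 probe read 4808 in unstimulated control cells and 546 in unstimulated THOC5-depleted cells, and 3047 and 455 after serum. All 9 fibroblast markers were well above background in every channel. Their summed signals ran from 423416 to 460818 in control cells and from 344359 to 384856 in THOC5-depleted cells. After normalization across the arrays, unstimulated THOC5-depleted cells ranged from 0.41 (Pdgfra) and 0.46 (Col3a1) to 1.06 (Fn1) and 1.19 (Thy1) times the control signal. Among 8 leukocyte markers, 4 were above background in all channels, and Ptprc, the pan-leukocyte marker, read between 5.59 and 14.4. The leukocyte sum ran from 7567 to 9558 in control and from 8534 to 9766 in THOC5-depleted cells, most of it from Itgam, and its part in the results below was not tested. In such bulk samples, fewer cells of a type and less RNA per cell cannot be told apart.

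NF-κB is a family of dimers that inhibitor of κB (IκB) proteins hold in the cytoplasm of resting cells. When a receptor activates the IκB kinase, the inhibitor is destroyed, the dimer enters the nucleus and genes with κB sites are transcribed. Among these are the genes for the inhibitors themselves, which end the response. In fibroblasts this pathway is best known for its response to cytokines.

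The κB consensus, a motif of 10 bases to which NF-κB dimers bind, was sought near the start sites of these genes. The genes were taken by symbol, but inhibitor genes are among the targets of NF-κB. The matches are therefore not independent of the choice of genes. RefSeq windows of the GRCm38.p6 build, from 250 bases before to 50 after a start site, were found for 7 of the 10 genes. The κB consensus, searched on both strands and counting overlapping matches, was in at least 1 window of 6 of these 7 genes. Over all genes with a window it was in 9.55%, and over all 32851 windows in 8.46%. Rela was the gene without it, which says only that these letters are not in its window. Nfkbiz, Nfkb1 and Relb were not searched. The stretches that end at the base before the start site are given below for 3 genes with large serum ratios and for 2 with small ones, with κB matches in capitals.
Nfkbia (chr12:55492648-55492897, minus strand): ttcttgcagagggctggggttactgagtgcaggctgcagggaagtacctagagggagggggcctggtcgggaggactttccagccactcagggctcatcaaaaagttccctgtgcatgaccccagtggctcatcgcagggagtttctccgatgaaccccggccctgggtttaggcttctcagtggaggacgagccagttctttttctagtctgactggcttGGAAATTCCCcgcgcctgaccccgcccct
Tnfaip3 (chr10:19015411-19015560, minus strand): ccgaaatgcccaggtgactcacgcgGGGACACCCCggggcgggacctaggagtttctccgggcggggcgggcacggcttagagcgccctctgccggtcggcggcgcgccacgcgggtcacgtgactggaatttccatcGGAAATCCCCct
Rel (chr11:23770970-23771119, minus strand): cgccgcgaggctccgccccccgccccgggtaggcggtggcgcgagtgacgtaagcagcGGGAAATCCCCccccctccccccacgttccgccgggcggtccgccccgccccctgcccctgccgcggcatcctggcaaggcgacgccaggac
Nfkb2 (chr19:46304657-46304736, plus strand): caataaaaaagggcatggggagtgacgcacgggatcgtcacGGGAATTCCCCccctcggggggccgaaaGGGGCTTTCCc
Nfkbie (chr17:45555580-45555699, plus strand): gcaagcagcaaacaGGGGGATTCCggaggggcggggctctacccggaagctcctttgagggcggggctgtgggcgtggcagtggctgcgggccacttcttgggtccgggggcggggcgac

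The match nearest the start begins 29 bases upstream in Nfkbia, 12 in Tnfaip3, 11 in Nfkb2, 91 in Rel and 106 in Nfkbie. The genes with little or no serum response below, Nfkb2 and Nfkbie, thus hold matches in these windows as do Nfkbia, Tnfaip3 and Rel. The match in Bcl3 lies just after its start site.

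In control cells, serum raised Tnfaip3, Nfkbiz and Nfkbia, of the inhibitors and regulators, and the subunit gene Rel by 2-fold or more. These are 4 of 10 genes, set beside 2.40% of the 17193 genes above background. In THOC5-depleted cells, Tnfaip3, Nfkbiz and Nfkbia reached 2-fold and Rel did not, so the count was 3 of 10 beside 0.762% of all genes. The serum ratio, the Cy5 over the Cy3 signal on 1 array, was above 1 for all 10 genes in control cells, where 46.7% of all genes had such a ratio. It was above 1 for 8 of 10 in THOC5-depleted cells, beside 47.4% of all genes. The median log2 serum ratio of the 10 genes was 0.60 in control and 0.18 in depleted cells, whereas over all genes it was -0.02 and -0.01.

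**Figure D1:**
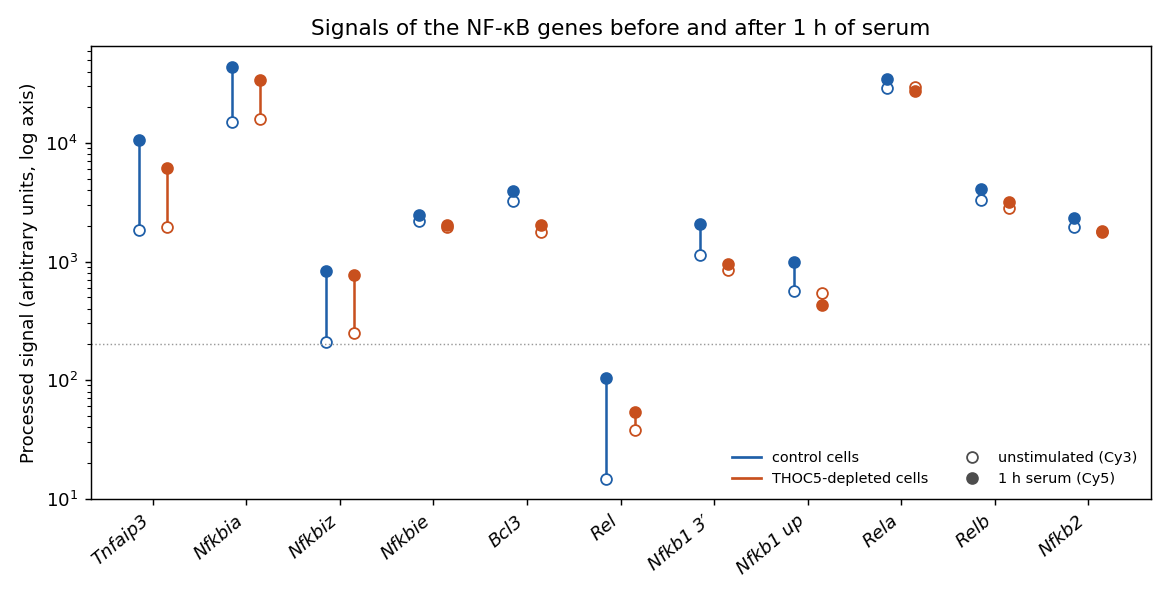
Processed signal in arbitrary units, on a log axis, of each gene before (open circles) and after 1 h of serum (filled circles) in control cells (blue) and THOC5-depleted cells (orange), 1 array each, with both Nfkb1 probes shown and the brighter Relb probe. Tnfaip3, Nfkbia and Nfkbiz climb on both arrays, Rel lies below the dotted line at a signal of 200 throughout, and levels of different genes are not comparable.

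Tnfaip3 encodes a ubiquitin-editing enzyme that shuts off signalling upstream of the IκB kinase. Its probe (mm9, chr10:18720776-18720835) read 1851 before and 10542 after serum in control cells, and 1942 and 6113 in THOC5-depleted cells. The signal after serum was several times the unstimulated signal on both arrays. The serum ratio was 5.70 in control and 3.15 in depleted cells, a 1.81-fold smaller ratio. With 0.378% of all genes above it in control and 0.297% in depleted cells, Tnfaip3 kept nearly the same place in the order of serum ratios.

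Nfkbia encodes IκBα, the inhibitor that is destroyed on activation and then made anew. Its probe gave 14982 and 44112 in control cells, and 15830 and 33860 in THOC5-depleted cells. The serum ratio was 2.94 in control and 2.14 in depleted cells, and was thus 1.38-fold smaller. The probe's coordinates (mm9, chr12:56590945-56591440) span 496 bases, more than the 60 bases of the probe, so that it bridges an intron and reads spliced RNA. The probe itself is given to show what was read.
Nfkbia probe: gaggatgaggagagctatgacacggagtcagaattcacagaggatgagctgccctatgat

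Nfkbiz encodes IκBζ, a nuclear member of the family that helps to switch on secondary response genes. Its probe (mm9, chr16:55817859-55817918) read 208 and 830 in control cells, and 248 and 763 in THOC5-depleted cells. The control ratio of 3.99 stood just under 4 and the ratio in THOC5-depleted cells was 3.08, a reduction just under the 1.3-fold limit used below.
Nfkbiz probe: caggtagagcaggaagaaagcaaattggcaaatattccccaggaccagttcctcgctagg

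Nfkbie, which encodes IκBε, and Bcl3, which encodes a nuclear partner of the p50 and p52 homodimers, responded little. The Nfkbie probe (mm9, chr17:45700000-45700059) read 2197 and 2454 in control cells, and 1961 and 2034 in THOC5-depleted cells, ratios of 1.12 and 1.04. The Bcl3 probe (mm9, chr7:20393826-20393885) read 3251 and 3939 in control cells, and 1771 and 2027 in THOC5-depleted cells, ratios of 1.21 and 1.14. Both Bcl3 signals were lower in THOC5-depleted cells, before serum as well as after it.

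Rel encodes c-Rel, a subunit with a transactivation domain that is best known from lymphoid cells. Its probe was dim, with signals of 14.7 and 104 in control cells and 37.8 and 54.0 in THOC5-depleted cells. The lowest signals called well above background were 11.2 for Cy3 and 14.0 for Cy5 on the control array, so the unstimulated control value lay close to that limit. The serum ratio was 7.09 in control and 1.43 in depleted cells, a 4.96-fold smaller ratio. With every signal below 50 set to 50, the ratios were 2.09 and 1.08, and the reduction 1.93-fold. For the probe only 15 bases of genome position (mm9, chr11:23641729-23641743) are listed.

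Nfkb1 encodes the precursor of the p50 subunit, and its 2 probes gave different pictures in THOC5-depleted cells. The probe nearer the 3′ end (mm9, chr3:135247621-135247680) read 1132 and 2068 in control cells, and 846 and 949 in THOC5-depleted cells. The upstream probe (mm9, chr3:135254550-135254609) read 560 and 989 in control cells, and 547 and 434 in THOC5-depleted cells. Serum ratios in control cells were close, at 1.83 for the 3′ and 1.77 for the upstream probe. In THOC5-depleted cells they were 1.12 and 0.79, so that the signal after serum lay above the unstimulated signal for one probe and below it for the other. The probes differed by 0.05 on the log2 scale on the control array and by 0.50 on the array of THOC5-depleted cells. Among 2856 transcripts with 2 probes above background, 80.6% of pairs differed by more than the former and 5.64% by more than the latter. The upstream probe is given below with a 30-base stretch of the 3′ probe that holds AATAAA, in capitals. These letters can serve as a polyadenylation signal, but no transcript end was looked up, and whether they do so here was not tested.
Nfkb1 upstream probe: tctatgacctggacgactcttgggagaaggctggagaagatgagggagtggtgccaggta
Nfkb1 3′ probe, stretch: ttttacttttatAATAAAagtacaagcaca

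Of the 12 probes, 5 held AATAAA (Bcl3, Nfkbie, Rel, Rela and the 3′ probe of Nfkb1), compared with 12.6% of all probes on the array.

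Rela encodes the p65 subunit, which with p50 forms the main dimer of the family. Its probe (mm9, chr19:5648070-5648129) read 29084 and 34335 in control cells, and 29847 and 27263 in THOC5-depleted cells. The ratio was 1.18 in control and 0.91 in depleted cells, on either side of 1. Nfkb2 encodes the precursor of p52, and its probe (mm9, chr19:46386146-46386285) read 1943 and 2313 in control cells, and 1819 and 1778 in THOC5-depleted cells. Its ratios, 1.19 and 0.98, also lay on either side of 1.

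Relb encodes the partner of p52 in the slower, noncanonical arm of the pathway. Its brighter probe (mm9, chr7:20191722-20191781) read 3276 and 4105 in control cells, and 2836 and 3157 in THOC5-depleted cells. The second probe (mm9, chr7:20191773-20191832) overlaps it and read 1625 and 2141, and 1464 and 1630. The brighter probe gave ratios of 1.25 in control and 1.11 in depleted cells and the second 1.32 and 1.11, so that the Relb probes, unlike those of Nfkb1, gave one picture.

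Repeated spots show how finely an array reads a ratio, although they leave out the spread between cultures and hybridizations. For probes printed 10 times with both signals at 200 or more, log2 ratios varied between spots with a median SD of 0.024 on both arrays. For probes with a lower signal under 60, as for Rel, it was 0.15.

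The serum ratio was smaller in THOC5-depleted than in control cells for all 10 genes as deposited, beside 48.8% of all genes. It was smaller for 6 of 10, beside 49.0%, when both arrays were scaled to one spread of log ratios over all probes. The difference reached 1.3-fold for Rel, Tnfaip3, Nfkb1 and Nfkbia, 4 of 10 genes beside 8.33% of all genes, and for 2 of 10 beside 7.38% after that scaling. Just outside this limit lay Nfkbiz and Rela, the latter with a 1.29-fold smaller ratio. The smallest differences were those of Nfkbie, at 1.08-fold, and Bcl3, at 1.06-fold. The median log2 difference over the 10 genes, THOC5-depleted minus control, was -0.37 as deposited and 0.01 over all genes. Log ratios were spread less widely on the array of THOC5-depleted cells, with a median absolute deviation of 0.136 against 0.194 in control cells. Scaling to one spread, set over all probes, dim ones included, multiplied log ratios by 0.720 on the control array and 1.39 on the other. Over genes above background it did not give one spread, with median absolute deviations of 0.189 in THOC5-depleted and 0.140 in control cells. The THOC5-depleted array was then the wider one, and a factor set on these genes alone was not used. This scaling turned the log2 differences of Tnfaip3, Nfkbia, Nfkbiz and Bcl3 to 0.49, 0.40, 0.82 and 0.07. Those of the 5 subunit genes and Nfkbie stayed below 0. The 10 spike-in probes, RNA added at set amounts, had log2 ratios 0.25 higher on the array of THOC5-depleted cells. Lowering that array's log ratios by this amount, an alternative chosen after seeing the data, gave 81.5% of all genes, and all 10 of these, a smaller ratio than in control cells and left Nfkbia at a ratio below 2.

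**Figure D2:**
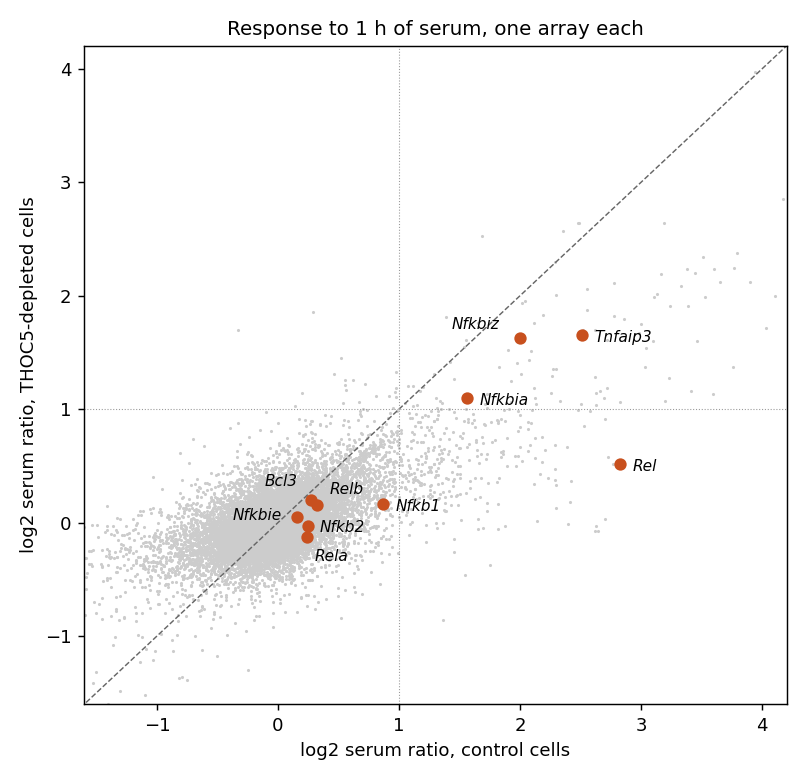
Log2 serum ratio in control cells (x axis) against THOC5-depleted cells (y axis), for all genes above background (grey) and the 10 NF-κB genes (orange), with the line of equal ratios dashed and 2-fold dotted. All 10 genes lie below the dashed line as deposited, Rel farthest from it; 70 genes lie beyond the axes.

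**Figure D3:**
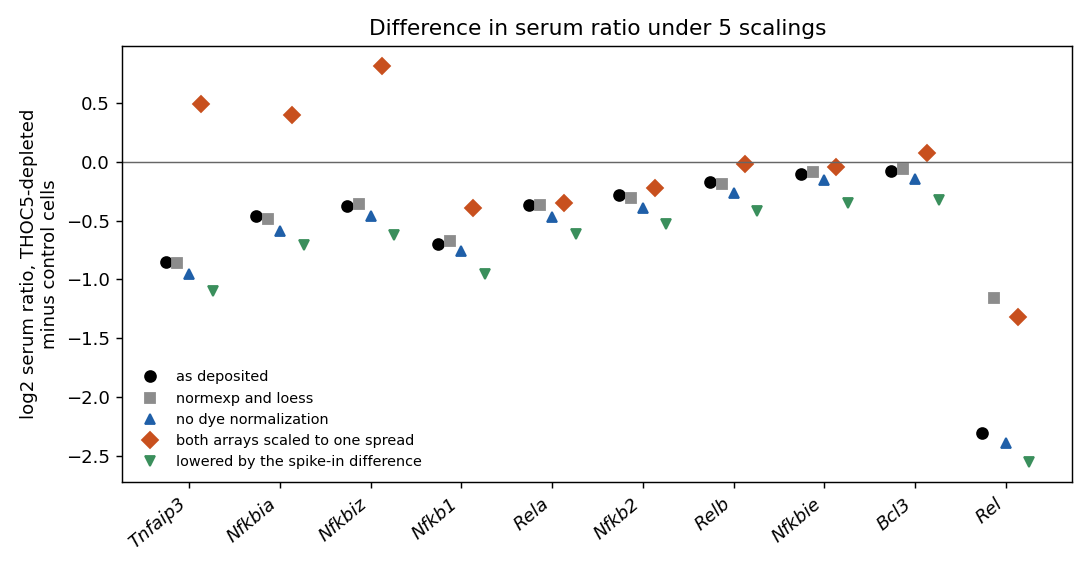
Log2 serum ratio in THOC5-depleted minus control cells for each gene (y axis) as deposited and under 4 other scalings. With both arrays scaled to one spread over all probes (orange diamonds) Tnfaip3, Nfkbia, Nfkbiz and Bcl3 lie above 0. Under the other scalings shown all 10 genes lie below 0.

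As deposited, most genes raised by serum in control cells had smaller ratios in THOC5-depleted cells. Of 412 genes raised 2-fold or more in control cells, 397 had a smaller ratio in THOC5-depleted cells, with a median of 1.88-fold smaller. These genes were chosen on their control ratio, which favours a smaller second value. Of the 131 genes raised 2-fold or more in THOC5-depleted cells, chosen the other way, 95 had a smaller ratio there than in control cells, with a median of 1.56-fold smaller. With both arrays scaled to one spread over all probes, these counts became 149 of 235 and 53 of 285, so that the second turned round. Over genes above background, however, that scaling left the log ratios of the THOC5-depleted array the more widely spread, which favours larger ratios there. Among the 412 genes, 12.9% had a smaller reduction than Nfkbiz, 17.7% than Nfkbia, 45.6% than Tnfaip3 and 97.1% than Rel. As deposited, Nfkbiz and Nfkbia thus lay in the lower part of that order, Tnfaip3 near its middle and Rel near its top. With the floor of 50, 53.1% of the 343 genes then raised had a smaller reduction than Rel, which puts it near the middle too.

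The nearest genes by their pair of log2 serum ratios were sought for each of the 4 genes raised in control cells, over 11222 genes with signals above 200 in every channel. For Nfkbia they were Arl4d, with ratios of 2.97 in control and 2.16 in depleted cells at a distance of 0.02, Golga7b and C81189. For Nfkbiz they were Dnajb1, with ratios of 4.27 and 2.85 at a distance of 0.15, Nr4a2 and Sgk1. Dnajb1 encodes a co-chaperone, Nr4a2 an orphan nuclear receptor and Sgk1 a serum-induced kinase. For Tnfaip3 they were Rcan1, with ratios of 5.86 and 3.66 at a distance of 0.22, Cyr61 and Sgk1. Rcan1 encodes a calcineurin inhibitor, and Cyr61 a matrix-associated immediate early protein. For Rel they were Foxc2, with log2 ratios of 2.72 and 0.58 at a distance of 0.12, Inhba and Sphk1. With the floor of 50 the log2 ratios of Rel were 1.06 and 0.11, far from those of Foxc2. Likeness here rests on 2 values a gene.

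A smaller ratio can come with a higher unstimulated signal, a lower stimulated signal or both, and the 10 genes differed in this. Signals were compared across the arrays after quantile normalization of their mean intensities, which is less precise than a ratio within an array. In unstimulated cells, 8 of 10 genes were higher in THOC5-depleted than in control cells, beside 49.5% of all genes, and 6 of 10, beside 32.3%, with the channel medians set equal. After serum, 8 of 10 were lower in THOC5-depleted cells, beside 50.2% of all genes, and 9 of 10, beside 63.2%, with the channel medians set equal. Only Rel differed 2-fold or more in unstimulated cells, 1 of 10 genes beside 2.69% of all genes, and with normexp background correction it did not. After serum 0 of 10 differed 2-fold or more, beside 3.23% of all genes.

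For Nfkbiz, Nfkbia, Rela and Nfkb2 the larger difference was in unstimulated cells, but with the channel medians set equal Nfkbia and Rela differed by about as much after serum and Nfkb2 by more. The unstimulated Nfkbiz signal was 1.43-fold higher in THOC5-depleted cells, and the stimulated signal 1.10-fold higher. For Nfkbia the unstimulated signal was 1.28-fold higher and the log2 difference after serum was -0.10. For Rela the unstimulated signal was 1.24-fold higher and the difference after serum -0.06, and for Nfkb2 the values were 1.16-fold and -0.07. With the channel medians set equal, the log2 differences before and after serum were 0.22 and -0.22 for Nfkbia, 0.18 and -0.17 for Rela, and 0.04 and -0.21 for Nfkb2.

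Tnfaip3 differed on both sides, with a signal 1.32-fold higher in unstimulated and 1.37-fold lower in stimulated THOC5-depleted cells. With the channel medians set equal the log2 differences of Tnfaip3 were 0.21 and -0.62. Rel also differed on both sides, 2.84-fold higher and 1.74-fold lower. For Nfkb1, by its 3′ probe, the difference lay after serum, 1.76-fold lower beside 1.08-fold lower before it, and the mean of both probes put the unstimulated log2 difference at 0.07. Bcl3 was lower by a like amount on both sides, 1.47-fold before and 1.56-fold after serum. Relb and Nfkbie differed by at most 0.15 on the log2 scale in either state. Setting the channel medians equal turned the sign of their unstimulated differences and of that of Nfkbie after serum, and moved that of Relb after serum to -0.21.

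**Figure D4:**
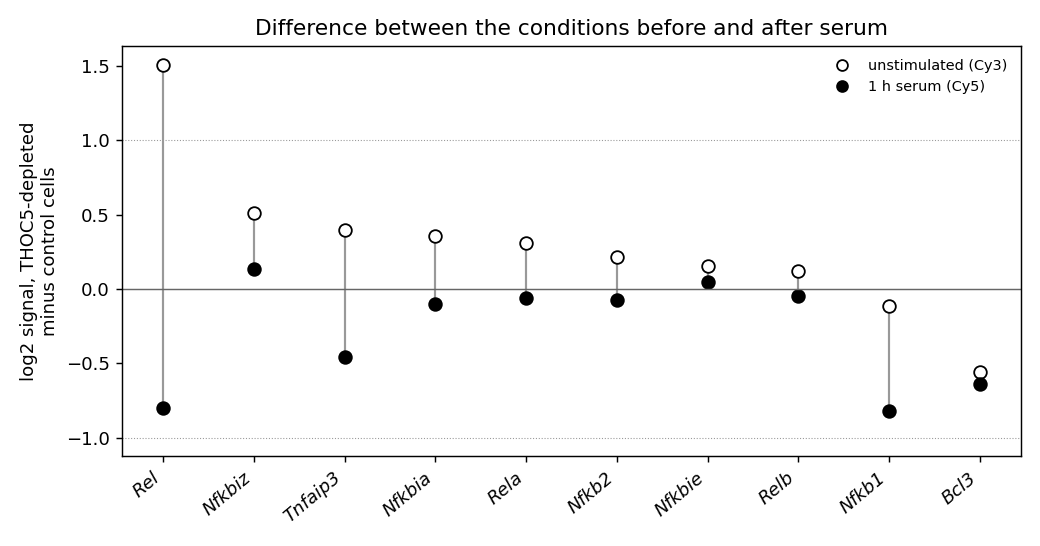
Log2 signal in THOC5-depleted minus control cells (y axis) for each gene before serum (open circles) and after 1 h of serum (filled circles), with 2-fold dotted. The distance between the circles of a gene is its difference in serum ratio, which as plotted for Nfkbia and Nfkbiz lies mostly above 0 and for Nfkb1 below 0.

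The serum responses of the rest of the pathway were read from 4 lists of genes. Of 20 ligands and receptors, 12 were above background, and none had a serum ratio of 2 or more or 0.5 or less on either array. Of 30 adaptors and kinases, all were above background and none passed these limits, which 4.13% of all genes passed, a share at which few or no genes of lists this small would be counted. The median log2 serum ratios in control and THOC5-depleted cells were 0.04 and 0.07 for ligands and receptors, and 0.13 and -0.04 for adaptors and kinases. Of 19 other inhibitors, 18 were above background, and 1 had a ratio of 2 or more. This was Zc3h12a, which encodes a ribonuclease that degrades cytokine mRNAs, with signals of 418 and 1016 in control cells, and 317 and 493 in THOC5-depleted cells. Its ratio was 2.43 in control and 1.55 in depleted cells.

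Target genes of NF-κB, many of which other factors also regulate, were also read. Of 36 listed, 35 were on the array and 30 above background. As deposited, 16 had a ratio of 2 or more in control cells, beside 2.40% of all genes, and 7 in THOC5-depleted cells, beside 0.762%. Scaled to one spread, the counts were 12 and 10, beside 1.37% and 1.66% of all genes. The 7 as deposited were Cxcl1, Csf2, Lif, Ptgs2, Ier3, Junb and F3, and the other 9 were Cxcl10, Ccl2, Il6, Csf1, Csf3, Gadd45b, Myc, Plau and Tnc. The median log2 ratio over the 30 genes was 1.202 in control and 0.33 in depleted cells. As deposited, the ratio in THOC5-depleted cells was at least 1.3-fold smaller in 18 of the 30, beside 8.33% of all genes, and at least 1.3-fold larger in 3 of the 30, beside 10.2%. After scaling to one spread, the ratio was smaller by this limit in 5 of the 30, beside 7.38% of all genes, and larger in 7, beside 9.004%. That scaling left the THOC5-depleted array the more widely spread over genes above background.

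As deposited, Csf2 and Lif, encoding a colony-stimulating factor and leukaemia inhibitory factor, were among the 3 of these 16 genes with the largest reductions. Scaled to one spread their log2 differences were 0.21 and 0.41. The other was Csf3, 3.20-fold smaller as deposited but dim, with signals below 200 in every channel. Its scaled log2 difference was -0.64 and that of Csf1 was -0.72, so these 2 stayed smaller. Csf2 read 59.6 and 2295 in control cells, and 27.3 and 201 in THOC5-depleted cells, ratios of 38.5 and 7.36. Lif read 429 and 5847 in control cells, and 203 and 961 in THOC5-depleted cells, ratios of 13.6 and 4.74. The chemokine genes Cxcl10, Cxcl1 and Ccl2 and the interleukin gene Il6 had the 4 smallest reductions of the 16 as deposited. Scaled to one spread this order did not hold, with log2 differences of -0.14 for Ccl2 and 0.58 for Ptgs2. Cxcl1 had ratios of 4.03 and 2.48, Cxcl10 of 2.45 and 1.85, Il6 of 2.22 and 1.63 and Ccl2 of 2.67 and 1.55. Il6 and Cxcl10 were higher in THOC5-depleted than in control cells before and after serum, Il6 by 1.54 and 1.09 on the log2 scale, whereas after serum the log2 differences of Csf2 and Lif were -3.32 and -2.32. After serum, 7 of 30 target genes differed 2-fold or more between the conditions, beside 3.23% of all genes.

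**Figure D5:**
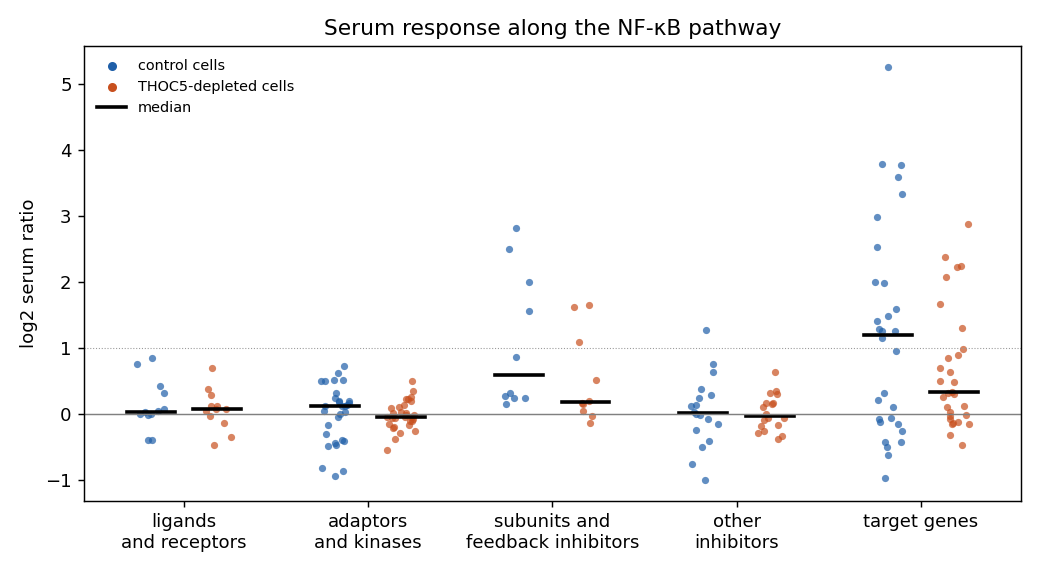
Log2 serum ratio (y axis) of each gene above background in 4 lists of the NF-κB pathway and in the 10 subunit, inhibitor and regulator genes, in control (blue) and THOC5-depleted cells (orange), with bars at the medians. Ratios of 2 or more (dotted line) are in the subunit, inhibitor and regulator genes, the target genes and 1 of the other inhibitors.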

How the data were processed

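The authors deposited 1 scanner table per array, made with Agilent Feature Extraction 10.7.3.1, holding background-subtracted and dye-normalized intensity values for both channels and their log10 ratio. They also deposited a series table of values that agree in size with the log10 ratios but carry no sign, read here as a score and used as an alternative only. Spots of a probe were averaged on the log2 scale without outlier spots, and a gene was read by its brightest probe. Counts used 2-fold and 1.3-fold limits over genes well above background in all 4 channels. Signals were compared across arrays after Aquantile normalization (limma 3.58.1, R 4.3.3). The scripts were tested on simulated data. All 10 members are named, and genes of the lists where a ratio passed 2-fold either way, with the 3 nearest genes of each raised member. The members, lists and limits were chosen with earlier results of these data known. Both arrays shared 1 slide and 1 scan. Probe positions are those of mm9 in the deposited files. Alternatives were other background correction, dye normalization, scaling, floors, filters and limits. The number of arrays limits the precision.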

Additional observations from a re-analysis of the deposited data

Results flagged for a closer look

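Rela, Nfkb2 and the upstream probe of Nfkb1 are listed because serum went with a higher signal on the control array and a lower one on the array of THOC5-depleted cells. The log2 serum ratio in THOC5-depleted minus control cells was -0.37 for Rela, -0.28 for Nfkb2 and -1.16 for the upstream probe of Nfkb1. These differences were not tested, since each condition had 1 array. With both arrays scaled to the same spread of log ratios over all probes the difference was -0.35 for Rela and -0.23 for Nfkb2. For normexp background correction with loess, the Nfkb2 ratio was on one side of 1 on both arrays, at log2 values of 0.34 and 0.03. Without dye normalization the log2 ratios of Rela were 1.32 and 0.85, beside medians of 0.83 and 0.76 over all genes.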

How the results depend on the processing

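No replicate could be left out and no paired analysis was possible because each condition had 1 array. Without dye normalization the median log2 ratio of all genes moved to 0.83 (control) and 0.76 (depleted). There 9 of the 10 genes passed 2-fold in control cells, beside 29.8% of all genes, 7 had a ratio at least 1.3-fold smaller in THOC5-depleted cells, beside 12.3%, and the medians of the 10 were 1.47 and 0.93, with a median difference of -0.46. With both arrays scaled to one spread over all probes, 2 genes were at least 1.3-fold smaller, the medians were 0.43 and 0.25, and the median difference was -0.0305. With signals above 200 in every channel, which left out Rel, the control median was 0.33. At a 4-fold limit, 2 genes were raised in control and 0 in depleted cells, beside 0.681% and 0.174% of all genes, and 1 gene had a ratio at least 2-fold smaller, beside 1.16%. Lowering the ratios of THOC5-depleted cells by the spike-in difference, chosen after seeing the data, gave 8 genes at least 1.3-fold smaller, beside 28.9% of all genes, a median of -0.0663 and a median difference of -0.62, beside -0.24 over all genes. With normexp correction 0 genes differed 2-fold between unstimulated cells, beside 0.925% of all genes, and at a 1.5-fold limit 3 differed between stimulated cells, beside 11.3%. The cause of these shifts was not tested. Of 270 values of single genes under alternatives that could change them for some gene, 139 moved by more than the spread between repeated spots. That spread was 0.031, the median SD of log2 ratios over all probes printed 10 times, used for every gene. For dim probes such as that of Rel the SD was 0.15. None of the values of 2-fold or more changed sign in these runs. Signal limits Rel in particular, whose log2 difference ran from -2.56 to -0.95.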
